A study of Mus musculus with 6 samples.

Results

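The Ifi200 genes are a family of interferon-induced genes that lie side by side on mouse chromosome 1. Their proteins carry a HIN domain, which binds DNA, and in most cases a pyrin domain, through which proteins of innate immunity join each other. Ifi202b, Ifi203, Ifi204 and Aim2 were followed here in mammary epithelium with and without Wwox, as every probe set of the array whose annotation names exactly 1 of these symbols. That gave 4 of the 45037 probe sets tested, 1 for each gene, and 4 of the 18193 genes that have such a probe set. The set was chosen by the lower value of Ifi202b on the KO arrays than on the WT arrays. Differences between the groups in these 4 probe sets are therefore given as a description, with no test.

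The arrays carried RNA of mammary epithelial organoids, the fragments of ducts that remain after the gland is digested, from 3 WT and 3 KO mice, 1 mouse per array. Mice of both groups were 8 weeks old and flox/flox for WWOX. WT mice (arrays WT1, WT2 and WT3) were BK5-cre -, and KO mice (arrays KO5, KO6 and KO7) were BK5-cre +. In this model the bovine keratin 5 promoter drives Cre. The study states that this promoter turns on before birth, in precursor cells of epithelia. It found little Wwox protein left in the mammary epithelium of KO mice. Keratin 5 is also made in the basal layer of other epithelia, such as skin. No WT mouse carried Cre, and an effect of the recombinase and an effect of the deletion cannot be told apart. The strain background of both groups was mixed, 129/J and C57BL/6, and the share of each strain in each mouse is not given in the sources used here. Ifi202b is known for levels that differ between inbred strains of mice, and the part of strain in the values was not tested.

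Wwox itself was lower in KO on the brightest of its 4 probe sets, by 1.69 on the log2 scale (SE 0.13, limma adjusted p = 0.0228). Whether its probes fall in the deleted exons was not determined. The arrays correlated at 0.975 to 0.992 over all probe sets. The luminal keratins Krt8 and Krt18 stood at 14.15 to 14.71 on every array. Of 14 luminal markers none was called, and of 16 basal markers 1, Itgb4, was called higher in KO. Over all genes 0.517% were called higher and 0.462% lower. The probe sets for both ends of Gapdh, a measure of RNA quality, were further apart in WT, where the 3' one exceeded the 5' one by 0.95, 2.41 and 1.79, than in KO (0.40, 0.56 and 0.46). The part of RNA quality in the results was not tested beyond the covariate fit given in the closing section.

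Aim2 is a cytosolic sensor of double-stranded DNA. It joins the adaptor ASC, the product of Pycard, and so activates caspase-1, which cuts the precursors of interleukin 1 beta and interleukin 18. The Ifi202b product, p202, has HIN domains but no pyrin domain, binds DNA without calling in ASC and is known to restrain Aim2. The Ifi204 product, p204, takes part in DNA sensing upstream of Sting1 and also binds the retinoblastoma protein. The Ifi203 product is a nuclear protein of the same family. Type I interferons induce target genes through the interferon-stimulated response element (ISRE), and interferon gamma through the GAS element.

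Promoter windows show what separates these genes in sequence. Of the family, 12 genes have a window in the RefSeq table of GRCm38.p6, the C57BL/6J assembly, 14 windows in all, each from 250 bases before a start to 50 after it. They include Ifi202b, Ifi203 and Aim2 but not Ifi204. Each was searched on both strands for GAAANNGAA, a short form of the ISRE, and for TTCNNNGAA, the GAS form, which reads the same on both strands. Matches of both forms overlapped in no family window. The windows of Ifi202b, Ifi203 and Aim2 are shown whole, with that of Mndal, the family gene whose array values were most like those of a probe set shared by Ifi203, and capitals mark a match to either form.

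Ifi202b, chr1:173982795-173983094, minus strand: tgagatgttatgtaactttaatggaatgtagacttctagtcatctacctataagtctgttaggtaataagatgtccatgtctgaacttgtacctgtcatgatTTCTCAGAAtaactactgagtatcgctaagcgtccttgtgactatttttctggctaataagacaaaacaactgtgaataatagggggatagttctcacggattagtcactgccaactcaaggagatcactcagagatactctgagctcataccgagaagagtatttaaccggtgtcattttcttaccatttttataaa

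Ifi203, chr1:173942443-173942742, minus strand: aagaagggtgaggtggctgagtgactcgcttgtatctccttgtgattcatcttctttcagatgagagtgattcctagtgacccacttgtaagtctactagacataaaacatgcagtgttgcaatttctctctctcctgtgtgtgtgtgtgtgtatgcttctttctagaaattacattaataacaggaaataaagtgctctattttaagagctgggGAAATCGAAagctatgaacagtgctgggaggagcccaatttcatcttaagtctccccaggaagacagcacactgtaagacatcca

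Mndal, chr1:173880138-173880437, minus strand: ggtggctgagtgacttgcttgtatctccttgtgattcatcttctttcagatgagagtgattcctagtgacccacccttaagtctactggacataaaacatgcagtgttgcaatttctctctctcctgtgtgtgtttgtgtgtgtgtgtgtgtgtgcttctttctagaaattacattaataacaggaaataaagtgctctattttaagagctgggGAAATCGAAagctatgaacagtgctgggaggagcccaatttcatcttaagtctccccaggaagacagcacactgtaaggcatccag

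Aim2, chr1:173420354-173420653, plus strand: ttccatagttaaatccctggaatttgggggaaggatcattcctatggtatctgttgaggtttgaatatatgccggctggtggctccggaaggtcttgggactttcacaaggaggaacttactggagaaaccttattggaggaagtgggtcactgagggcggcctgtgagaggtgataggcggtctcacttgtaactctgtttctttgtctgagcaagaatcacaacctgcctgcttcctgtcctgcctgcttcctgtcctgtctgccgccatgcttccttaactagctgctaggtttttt

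The ISRE-like form was found in 10 of the 14 family windows, of 9 genes, against 8.56% of all 32851 windows in the table. In 7 of the 14 it read GAAATCGAA, which 0.0913% of all windows held. In this window Ifi203 had it with its first base 35 bases before the start, and Mndal 36 bases before it. These windows of Ifi203 and Mndal were 94.3% identical over 299 aligned positions. The window of Ifi206 was 98.9% identical to that of Ifi208 over 282 positions and 98.5% to that of Ifi213 over 267. Those of Ifi211 and Ifi205 were 93.5% identical over 201. Windows of the family are thus not independent of each other, and their counts are a description. The windows of Ifi202b, Aim2 and Ifi209 held no ISRE-like match, nor did the other window of Ifi203. The Ifi202b window held the only GAS-like match of the family, 148 bases before the start, against 8.3% of all windows. The match nearest the start on the same strand, for each remaining family gene that held one, is shown with its flanks, to set it beside that of Ifi203, with the match in capitals.

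Ifi203: gagctgggGAAATCGAAagctatga
Ifi207: tagccaggGAAATCGAAaattaaga
Ifi211: aagccaggGAAATTGAAagctatga
Ifi205: aggccaggGAAATTGAAagctatga
Ifi213: tctctgagGAAATCGAAagctatga
Ifi208: tctctgagGAAATCGAAagctatga
Ifi206: tctctgagGAAATCGAAagctatga
Ifi214: tctctgagGAAATCGAAagcgatgc

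Ifi211 and Ifi205 carried GAAATTGAA in place of GAAATCGAA, and the bases around the match were shared in several of these genes. A match of letters is not shown to be a bound site, and binding was not measured on these arrays.

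Ifi202b stood at 9.36, 9.68 and 9.06 in WT and at 7.64, 5.25 and 7.15 in KO (log2 values, in the order of the arrays above). The groups did not overlap, KO6 was the lowest array, and KO5 and KO7 lay close to each other. The mean was 9.37 ± 0.31 (SD, n = 3) for WT mice and 6.68 ± 1.26 (SD, n = 3) for KO mice, a difference of -2.69 (SE 0.56), or 6.43-fold. Without KO6 the difference was -1.97, and without KO5 it was -3.17.

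Ifi203 stood at 6.01, 6.17 and 6.12 in WT and at 6.00, 6.39 and 6.09 in KO. The groups overlapped, and KO6 was the highest array. The difference was 0.06 (SE 0.13).

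Ifi204 stood at 5.26, 6.09 and 6.51 in WT and at 6.24, 6.69 and 4.89 in KO. Both groups spanned most of the range, from KO7 and WT1 at the low end to WT3 and KO6 at the high end. The means differed by -0.01 (SE 0.49), with SDs of 0.64 in WT and 0.94 in KO (n = 3 each).

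Aim2 stood at 3.67, 3.47 and 3.37 in WT and at 3.26, 3.56 and 3.48 in KO. On every array this lay below the lower quartile of all probe sets, which ranged from 3.97 to 4.07 among the arrays. The groups overlapped, and the difference was -0.07 (SE 0.13). At so low a signal the transcript was not shown to be measured above background.

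**Figure D1:**
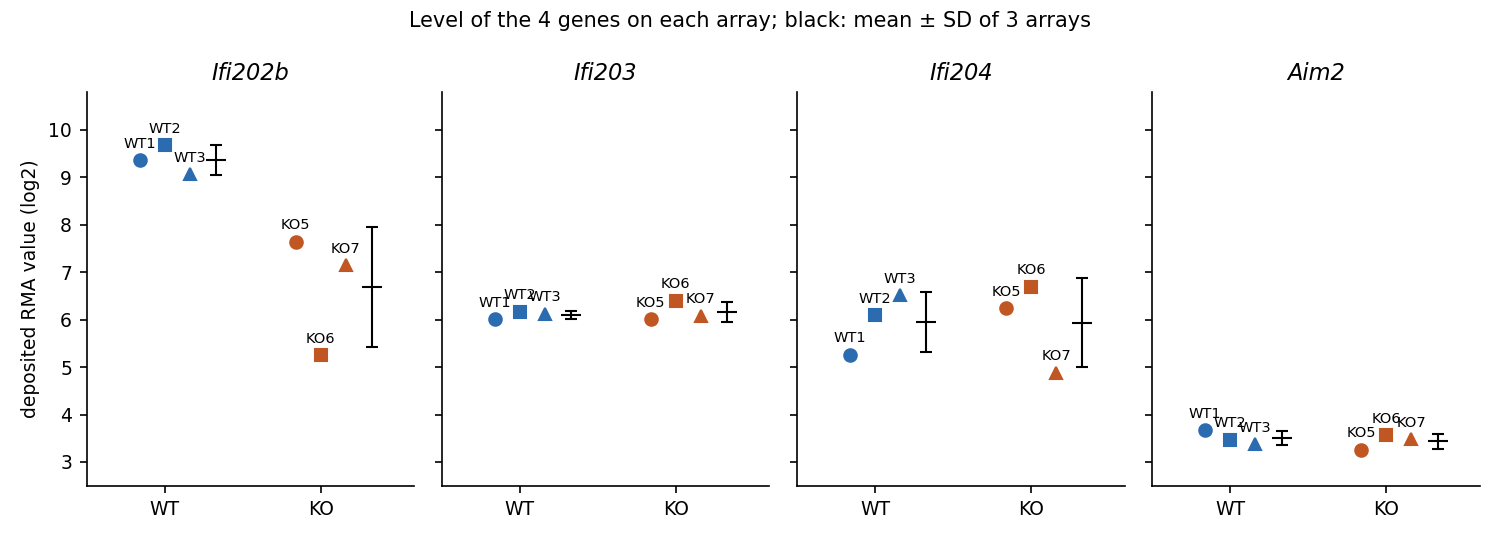
Deposited RMA value (log2, y axis) of the single probe set of each gene on the WT (blue) and KO (orange) arrays, with the mean and SD of 3 arrays in black. Ifi202b ranged from 9.06 to 9.68 in WT and from 5.25 to 7.64 in KO, while the groups overlapped for Ifi203, Ifi204 and Aim2. Heights of different probe sets are not comparable with each other.

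In all, 1 of the 4 probe sets lay within the limits the study used, an unadjusted p under 0.01 and at least 2-fold, and the same 1 had groups that did not overlap. Over all probe sets tested, 1.99% were called at those limits and 24.3% had groups that did not overlap. The set was selected on that difference, and nothing is read from its count. With RNA quality as a covariate Ifi202b differed by -2.63 and no longer met the limit on p.

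A further 5 probe sets carry a member's symbol together with others, because their probes match more than 1 related gene. They were not among the 4, and which gene gave their signal is uncertain. The one annotated to Ifi202b and LOC100044068 stood at 10.23, 10.98 and 10.23 in WT and at 8.62, 5.11 and 8.05 in KO, a difference of -3.22 (SE 0.83). Without KO6 the difference was -2.15. Its arrays ranked as those of the Ifi202b probe set did, with KO6 again lowest. Over the 6 arrays the pair correlated at 0.993. The Ifi202b probe set among the 4, though annotated to 1 symbol, is also of a kind whose probes can match more than 1 transcript.

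Ifi203 is named with a pseudogene, Ifi203-ps, and predicted genes on 3 of these probe sets. The first stood at 8.25, 8.71 and 8.26 in WT and at 7.05, 7.55 and 7.06 in KO, a difference of -1.19 (SE 0.19), with the groups apart. The second stood at 9.04, 9.09 and 8.86 in WT and at 7.87, 8.71 and 7.50 in KO, a difference of -0.97 (SE 0.29). On both, KO6 was the KO array nearest to WT, the reverse of its place for Ifi202b. The third had low values, 3.80 to 4.26 on all arrays, and was 0.21 higher in KO (SE 0.12). The single-symbol probe set of Ifi203 did not share their difference between the groups, at 0.06. Over deviations from the group means it correlated with the first at 0.854 and with the second at 0.798, and KO6 was the highest KO array on all 3. Which transcripts each of them detects was not tested.

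The probe set shared by Mndal, Ifi211, Ifi205 and Ifi204 stood at 8.94, 9.05 and 9.65 in WT and at 9.67, 10.49 and 8.50 in KO. The groups overlapped, KO6 was again highest and KO7 lowest, and the difference was 0.34 (SE 0.47).

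Of the rest of the family, Mndal, Ifi207, Ifi209 and Ifi213 had 7 probe sets of their own. Of these 1 was called, lower in KO, against 1.99% of all probe sets called in either direction. Mndal, which encodes a nuclear HIN protein related to human MNDA, gave that call. It stood at 9.25, 9.40 and 9.44 in WT and at 7.74, 8.98 and 7.21 in KO. The groups did not overlap, though KO6 came within 0.5 of the WT arrays. The difference was -1.39 (SE 0.40, limma adjusted p = 0.129). Without KO6 it was -1.89, and without KO7 it was -1.01 and no longer called. The call was also lost without KO5 or any single WT array, after renewed quantile normalization, after ribosomal protein centring and with RNA quality as a covariate.

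The other Mndal probe set, whose probes can match related genes, stood at 9.88, 9.93 and 9.96 in WT and at 9.01, 10.07 and 8.59 in KO. Here KO6 was the highest of all arrays, and the difference of -0.70 (SE 0.34, limma adjusted p = 0.314) was not called.

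Ifi207 stood at 6.42, 7.08 and 7.41 in WT and at 6.98, 7.50 and 6.05 in KO, and did not pass the test (-0.12, SE 0.39). Ifi209, on 2 probe sets, differed by -0.55 (SE 0.38) and 0.01 (SE 0.64). Ifi213, also on 2, differed by -0.63 (SE 0.33) and -0.04 (SE 0.10), the latter at the low level of 2.99 to 3.13. None of these 5 was called, and on each the groups overlapped. A probe set shared by Ifi211 and Ifi205 alone stood at 10.23, 10.74 and 11.36 in WT and at 11.37, 12.13 and 10.30 in KO, a difference of 0.49 (SE 0.47).

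Across mice the family fell into different orders. Ifi204, Ifi207 and the probe sets shared with Ifi205 and Ifi211 were highest in KO6 and low in KO7 and WT1. Ifi204 and Ifi207 correlated at 0.989 over 6 arrays and at 0.995 over deviations from the group means. Mndal and the second shared probe set of Ifi203 correlated at 0.988 over 6 arrays, with KO5 and KO7 low and KO6 between them and WT. Ifi202b was lowest in KO6, on both its probe sets, as was the dim second probe set of Ifi213 (2.99) and no other of the 17. Aim2 and the first probe set of Ifi213 correlated at 0.882, both with low signal. Arrays share their normalization and related probe sets share sequence, so these correlations are a description of 6 arrays only.

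**Figure D2:**
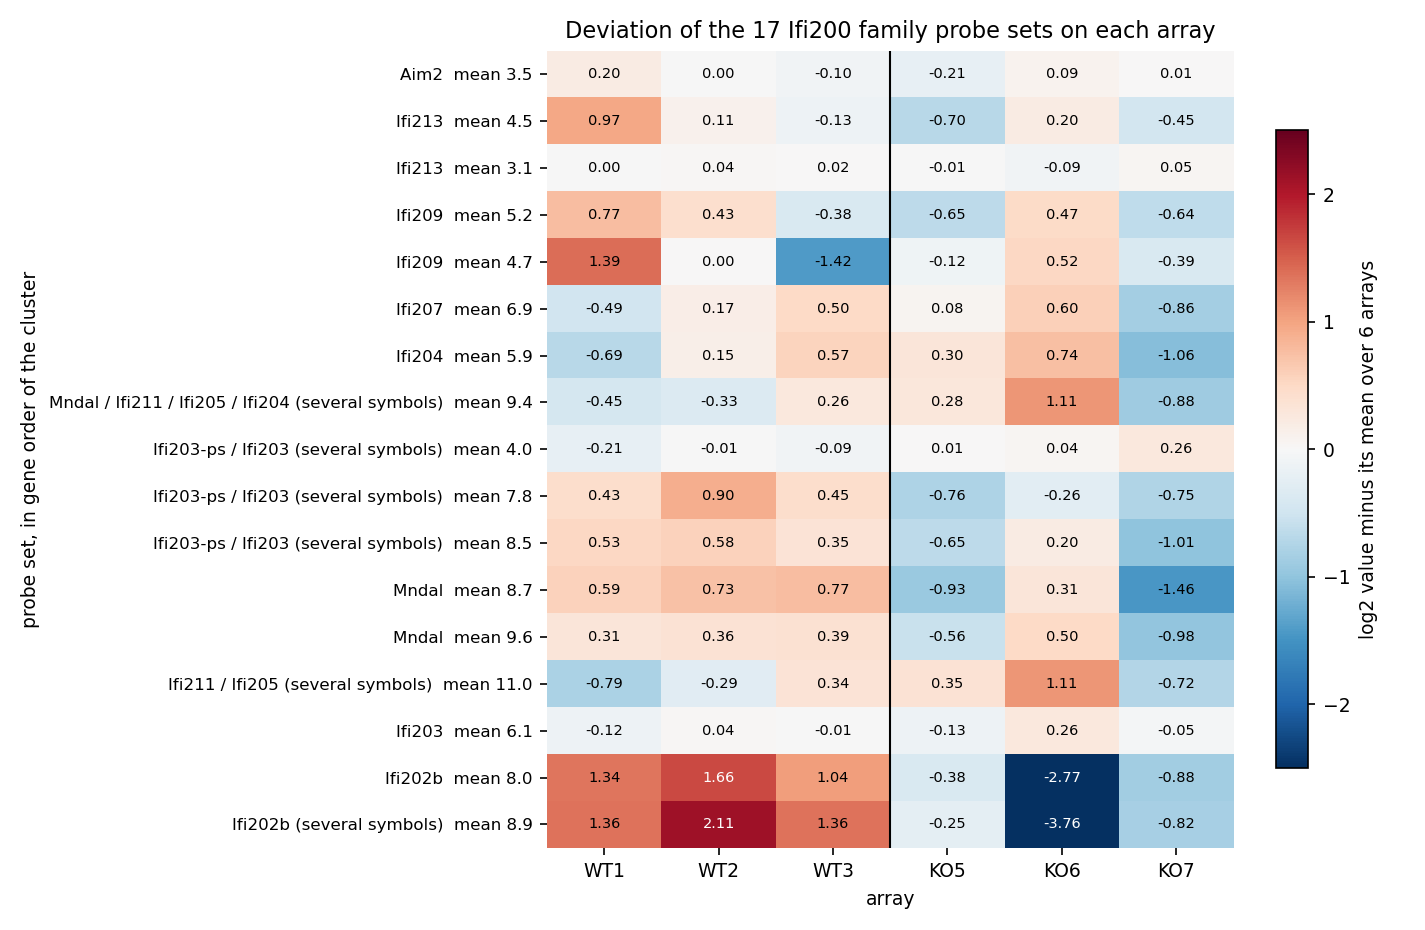
Each cell gives the log2 value of a family probe set (y axis, in gene order, with its mean) on 1 array (x axis) minus its mean over the 6 arrays. Red is above and blue below that mean. KO6 holds the lowest value for both Ifi202b probe sets and the highest for Ifi204, Ifi207 and the probe sets shared with Ifi205 and Ifi211.

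Markers of other cells in the organoids moved over the same arrays. Of 18 fibroblast markers 3 were called higher in KO and none lower, against 0.517% and 0.462% of all genes. They were Pi16, Fbln2 and Col1a1, the chain of type I collagen (1.43 higher, SE 0.19, limma adjusted p = 0.0492). At an unadjusted p under 0.05, limma gave 6 of the list higher (33.3%) and none lower, against 6.17% and 13.0% of all genes. The median deviation of the fibroblast list was -0.38, -0.20 and -0.12 in WT and 0.40, 0.53 and -0.30 in KO, with KO6 highest and WT1 and KO7 lowest. For Ifi204 too KO6 was highest and KO7 and WT1 were lowest. The summed log2 level of the list was 181.3 to 183.9 in WT and 180.9 to 195.5 in KO.

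Of 38 macrophage and dendritic cell markers none was called higher and 4 were called lower, namely Aif1, C1qb, Fcgr3 and Tyrobp. Tyrobp, an adaptor of myeloid receptors, was 1.20 lower (SE 0.34, limma adjusted p = 0.126). The median difference of the list was -0.39, and its summed log2 level was 253.9 to 290.4 in WT and 242.6 to 272.1 in KO. Csf1r, Cd68 and Adgre1, which define macrophages, were above the lower quartile of all probe sets on every array, and the first differed by -0.77.

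Of 25 lymphocyte markers none was called and 25 were lower in KO, with a median difference of -0.82. At an unadjusted p under 0.05, limma gave 3 lower (12.0%) and none higher, against 13.0% and 6.17% of all genes. The list's median deviation was 1.13, 0.19 and -0.41 in WT and -0.69, 0.28 and -0.44 in KO, so KO6 lay above WT3. The summed log2 level was 142.5 to 191.5 in WT and 133.8 to 163.3 in KO. For Ifi202b, by contrast, KO6 was the lowest array. Of 15 endothelial markers 2 were called higher, Cldn5 (1.23) and Tie1 (1.16). The list had a median difference of 0.60 and sums of 127.9 to 135.1 in WT and 136.2 to 144.1 in KO. At an unadjusted p under 0.05, limma gave 7 of these 15 higher (46.7%) and none lower. Of 9 adipocyte markers 1 was called higher, Lipe (1.08), and at that limit on p 2 were higher (22.2%) and none lower. Over all genes 0.517% were called higher. Of the adipocyte list 5 were higher and 4 lower, with a median difference of 0.17. The summed log2 level was 66.7 to 76.1 in WT, which spans the 70.0 to 73.0 of KO. The part of cell makeup in the family's values was not tested, and in bulk RNA fewer cells of a type and less RNA per cell cannot be told apart.

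**Figure D3:**
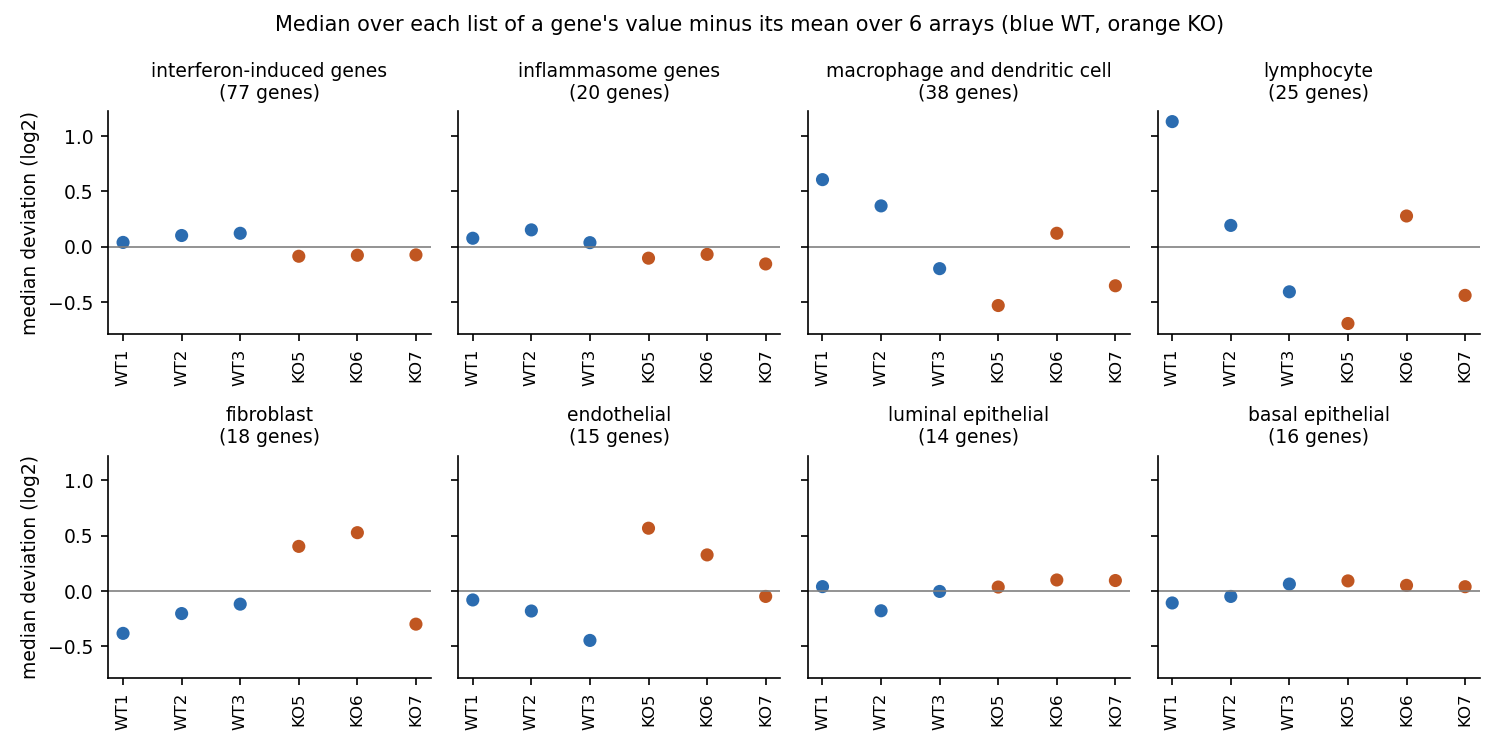
Each point is 1 array (x axis), blue for WT and orange for KO. The y axis is the median over a list of each gene's log2 value minus its mean over the 6 arrays. The interferon-induced and inflammasome lists differ little among arrays of a group, while the lymphocyte list ranges from 1.13 on WT1 to -0.69 on KO5 and the fibroblast list is highest on KO6.

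Around Aim2, 20 genes of inflammasomes were measured, each read on its brightest probe set. Of these 1 was called lower and none higher. Over all 18193 genes read this way, 0.462% were called lower and 0.517% higher. The gene was Naip5, which senses bacterial flagellin. It stood at 4.51, 5.12 and 6.17 in WT and at 4.03, 3.71 and 3.85 in KO, a difference of -1.41 (SE 0.37, limma adjusted p = 0.112). The call was lost without WT2, without WT3 (-0.96), without any single KO array and with RNA quality as a covariate (-0.55).

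At an unadjusted p under 0.05, with no limit on fold, 6 of the 20 were lower (30.0%) and none higher. Over all genes 13.0% were lower and 6.17% higher. The median difference of the list was -0.19, against -0.06 over all genes. Casp1, Pycard and Il18 belong to the Aim2 pathway and were picked out after their values were seen. Casp1, the protease itself, stood at 6.57, 6.75 and 7.09 in WT and at 6.19, 6.04 and 5.91 in KO. Its groups did not overlap, and it differed by -0.76 (SE 0.16, limma adjusted p = 0.0759), short of 2-fold. Pycard stood at 9.15, 9.23 and 9.74 in WT and at 8.51, 8.46 and 9.16 in KO (-0.67, SE 0.24, limma adjusted p = 0.187). Il18, a caspase-1 substrate, differed by -0.51 (SE 0.20). Il1b, Il1a and Naip5 made up the 6. The median deviation of the macrophage list given above was 0.61, 0.37 and -0.20 in WT and -0.53, 0.12 and -0.35 in KO. KO6 thus lay above WT3 on that list. Casp1, Pycard and Naip5 were highest on WT3, and Il18, Il1a and Il1b on WT2. For Il1b KO6 (8.08) also lay above WT3 (7.89), and for the rest of the 6 it lay below WT3. The part of cell makeup in these values was not tested.

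Of 28 other genes that sense DNA or RNA in the cell, limma called none. At an unadjusted p under 0.05 it gave 1 higher, Eif2ak2, and 1 lower, Ifih1. Each is 3.57% of the list, against 6.17% higher and 13.0% lower over all genes. The median was -0.11. Cgas, the enzyme that makes cyclic GMP-AMP from cytosolic DNA, differed by -0.11 (SE 0.11).

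Of 24 interferons, receptors and signal transducers limma called none, and 2 were higher and 4 lower where only an unadjusted p under 0.05 was asked. Those are 8.33% and 16.7% of the list, against 6.17% and 13.0% of all genes. The median was -0.04. Stat2, a subunit of the factor that binds the ISRE, stood at 5.20, 5.32 and 5.26 in WT and at 5.75, 5.89 and 5.79 in KO. It differed by 0.55 (SE 0.10, limma adjusted p = 0.0665) and did not reach 2-fold. Irf9 (0.03), Irf7 (-0.01) and the receptor Ifnar1 (-0.05) differed by less than their SEs. Beside Stat2, the gene higher at that limit on p was Tyk2 (0.50, SE 0.12). The 4 lower were Ifng (-0.78, SE 0.26), Usp18 (-0.40, SE 0.13), Ptpn2 (-0.34, SE 0.12) and Ifnar2 (-0.32, SE 0.13).

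Of 77 interferon-induced genes outside the family 1 was called higher and 2 lower, against 0.517% and 0.462% of all genes. Trim34a, a tripartite motif gene, stood at 6.28, 6.61 and 6.33 in WT and at 4.09, 4.38 and 4.42 in KO. The difference of -2.11 (SE 0.14, limma adjusted p = 0.0151) was the largest of the list. Ifi47, an interferon-induced GTPase, fell from 9.58, 9.93 and 9.68 in WT to 8.70, 8.85 and 8.55 in KO (-1.03, SE 0.14, limma adjusted p = 0.0492). Slfn5, a Schlafen gene, rose from 6.85, 6.59 and 6.39 to 7.99, 7.73 and 7.89 (1.26, SE 0.15, limma adjusted p = 0.0427). In all 3 the groups were apart, and the KO arrays, KO6 included, lay close together. Ifi47 fell short of 2-fold without WT2 (-0.93), without KO7 (-0.96) and after ribosomal protein centring (-0.93), and neither Ifi47 nor Slfn5 was called with RNA quality as a covariate.

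At an unadjusted p under 0.05, 21 of the 77 were lower (27.3%) and 4 higher (5.19%), to be read against 13.0% and 6.17% of all genes. The median difference was -0.11, against -0.06.

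Of 22 genes whose proteins bind p202, p204 or related proteins limma called none. At an unadjusted p under 0.05 it gave 2 higher, Id1 and Jun, and 3 lower, Id2, Rb1 and Rbl2. Those are 9.09% and 13.6% of the list, against 6.17% and 13.0% of all genes. The median was 0.01. Rb1, which encodes the retinoblastoma protein, differed by -0.48.

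The family lies in 1 run on chromosome 1 from Aim2 to Ifi205, where among 14 genes, 1 pseudogene included, Ifi204 is number 8, Mndal number 10, Ifi203 number 12 and Ifi202b number 13. The 20 measured genes on each side of that run were read in the same way. Of the 40, limma called none. At an unadjusted p under 0.05 it gave 2 that were higher and 4 that were lower. Over all genes those shares were 6.17% higher and 13.0% lower. Groups did not overlap in 8 of the 40, against 24.3% of all probe sets. The differences ranged from -0.58 to 0.62, with a median of -0.05. The ends of that range, named after their values were seen, were Fcer1a, a chain of the IgE receptor of mast cells, and Fmn2, a formin that nucleates actin. Inside the run, on single-symbol probe sets, Aim2, Ifi203, Ifi204 and Ifi207 lay within the range of -0.58 to 0.62 too. So did both probe sets of Ifi209 (-0.55 and 0.01) and the dim second one of Ifi213 (-0.04). Neighbours were read on their brightest probe set, and family genes on every one. Ifi202b, for which the set was chosen, and both probe sets of Mndal lay below that range, as did 1 of the probe sets of Ifi213 (-0.63). Of the probe sets that Ifi203 shares with other symbols, 2 also lay below it, at -1.19 and -0.97. The third of these, with low values, lay within it at 0.21. With 40 genes on each side the range widened to -1.25 (Slamf1) and 1.14 (H3f3a, which was called), and Cd48 (-1.15) and Slamf6 (-1.01) also passed -1. These 4 were named after their values were seen.

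**Figure D4:**
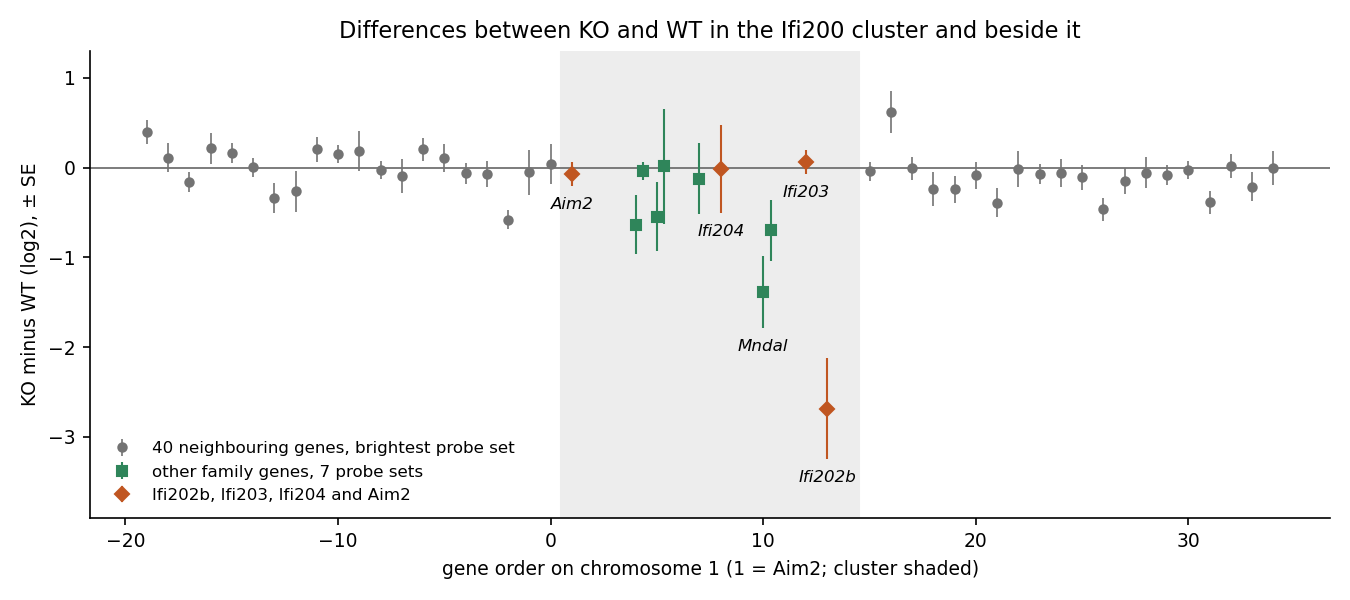
Difference between KO and WT (log2, y axis, with SE bars) by gene order on chromosome 1 (x axis, in steps of genes and not to scale in distance), with the run of family genes shaded. Grey points are the 20 measured genes on each side, green squares other family genes and orange diamonds the 4 genes described here. Probe sets with several symbols are not drawn. Ifi202b at -2.69 and Mndal at -1.39 lie below the neighbours, which range from -0.58 to 0.62.

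Genes whose values were most like those of Ifi202b were found by Pearson correlation, among 2949 probe sets with 1 symbol and an SD of at least 0.5. Over the 6 arrays they were Hepacam2, a cell adhesion gene (0.991), Bend5 (0.981), Lsm8, which binds U6 RNA (0.980), Cd1d1, which presents lipids to natural killer T cells (0.979), and Agtr1a, a receptor of angiotensin II (0.979). Hepacam2 stood at 7.76, 8.44 and 8.14 in WT and at 6.60, 4.16 and 6.01 in KO. It thus had the same order of KO arrays, with KO6 lowest. None of the 5 lies on chromosome 1.

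Over deviations from the group means, which leave out the difference between groups, the 5 most alike of 1086 were Ncoa7, a coactivator of nuclear receptors (0.992), Snhg12 (0.979), Chd8, a chromatin remodeller (0.972), Hepacam2 (0.966) and Agtr1a (0.923). Ncoa7 was lowest in KO6 as well, yet stood higher in KO5 and KO7, at 8.70 and 8.09, than in WT, at 6.12 to 6.59. Of the 100 most alike, 8 and 7 lay on chromosome 1 by the first and the second measure, against 7.8% and 7.46% of the probe sets compared. For Ifi204 the most alike was Ifi207 by both measures. Ifi203 and Aim2 varied too little for such a ranking.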

How the data were processed

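RNA from 3 WT and 3 KO mice had been hybridised to whole-genome Affymetrix mouse arrays. Per the labels the authors used RMA, whose log2 values they deposited; the version and a genome build are not given in the sources used here. RMA corrects background, quantile normalizes and summarises the probes of a probe set. The values were used unchanged. Of 45101 probe sets, 64 controls were left out of the tests. Among the other 45037, the annotation gives 34945 a single symbol, 932 more than 1 and 9160 no symbol. Names come from single-symbol probe sets, updated by gene identifier for 34741.

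All probe sets entered a limma fit (limma 3.58.1, R 4.3.3) of genotype alone, a step tested on simulated data, with Benjamini-Hochberg adjustment. Calls needed p under 0.01 before adjustment and at least 2-fold. Lists were read on the brightest probe set of each gene. The members and lists were chosen with earlier results of these data known. Named were all family probe sets, called genes of each list (up to 6), the 5 genes most like Ifi202b by each measure, Wwox and the first markers of each list. Other genes were named for their role or after their values were seen. Promoter windows are from RefSeq (GRCm38.p6), aligned locally with Biopython 1.88. Python 3.11.15 and matplotlib 3.10.9 drew the figures. Replicate numbers did not pair the arrays. With 3 arrays a group, their number limits the precision, and p-values measure the spread between these mice. Alternatives were renewed quantile normalization, centring on ribosomal protein genes, a minimum mean log2 value of 6, a trended and robust prior, array weights, the replicate number as a block, RNA quality as a covariate, each array left out, a threshold on adjusted p, any probe set of a gene, and 10 or 40 genes beside the cluster.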

Additional observations from a re-analysis of the deposited data

How the results depend on the processing

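The difference of Ifi202b kept its sign in every alternative run, from -1.97 without KO6 to -3.17 without KO5, and moved by less than the spread between replicates. The count of the 4 probe sets within the limits was 1, and 0 with RNA quality as a covariate or at an adjusted p under 0.05. That covariate nearly coincides with the groups, and the cause was not tested. It also moved Ifi204 to 0.98, Ifi203 to 0.22 and Aim2 to -0.29. Ribosomal protein centring turned the small differences of Ifi204 and Aim2 to 0.08 and 0.03.

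Among the 7 probe sets of other family genes the count of 1 became 0 after renewed quantile normalization, after ribosomal protein centring, with the RNA quality covariate and at an adjusted p under 0.05. With an array left out it ranged from 0 to 2, the 2 being without KO6, when both Mndal probe sets were called. Of inflammasome and sensing genes, 1 was called, against 0 with a minimum mean log2 value of 6 (Naip5 is then filtered out), with the RNA quality covariate and at an adjusted p under 0.05. It was 2 with array weights and 0 to 2 with an array left out. With any probe set of a gene it was 4, of which 3 were higher and 1 lower, where the single call had been lower. Of interferon signalling and induced genes 3 were called, against 7 with any probe set of a gene and 2 to 7 with an array left out, 7 without WT1, 5 without WT3 and 2 without KO7. Of the 3, 1 was higher and 2 were lower in KO. With any probe set of a gene, 5 were higher and 2 lower, and after ribosomal protein centring 2 were higher and 1 lower. With the RNA quality covariate 0 were higher and 3 lower. Beside the cluster 0 genes were called, 0 in each fit with an array left out and with 10 genes a side, and 1 with 40 a side. Of the called genes named, those of the family, Trim34a, Slfn5, Ifi47 and Naip5 were followed singly through the alternatives, and the rest were not. None of the called differences followed changed sign. Differences near 0 did, as that of Ifi203 to -0.06 without KO6 and that of Aim2 to 0.01 without WT1 and 0.02 without KO5. Centring on ribosomal protein genes moved the median difference of all probe sets from -0.03 to 0.06.

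With the replicate number as a block, the difference of Ifi202b stayed at -2.69, and the counts above were 1, 1, 1, 3 and 0. Calls over all probe sets went from 894 to 922, and from 100 to 0 at an adjusted p under 0.05. Deviations of arrays with the same number correlated at -0.155, 0.16 and 0.099, and not every array correlated best with its own number.

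Limits are the 3 arrays a group, signal near background for Aim2, one Ifi213 and one shared Ifi203 probe set, and probes that match several genes of the family.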
